A study of Mus musculus with 10 samples.

Results

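The genes described here encode the mitochondrial ribosomal proteins, taken as every gene whose symbol starts with Mrpl or Mrps and that has an array probe set assigned to it alone. The rule found 77 genes among the 19938 tested, 48 named Mrpl (large subunit) and 29 named Mrps (small subunit), and each was read from the brightest of its probe sets. RNA came from dorsal root ganglia (DRGs), the clusters of sensory neurons and glia beside the spinal cord, of mouse embryos at E13.5, and was hybridised to Affymetrix Mouse Gene 1.0 ST arrays. The groups were 5 wild-type (WT) and 5 Lkb1 KO samples, each sample being a pool of the DRGs of 2 embryos. The labels call them biological replicates. In the Lkb1 KO, floxed Lkb1 (gene symbol Stk11), which encodes a kinase upstream of AMPK and related kinases, was deleted by a Wnt1-Cre transgene. That transgene acts in the neural crest, the source of the neurons and glia of the DRG, and in parts of the embryonic brain and spinal cord. Cells of the ganglion from other lineages keep the gene. Controls were WT littermates on a mixed genetic background, and no drug or injury was applied to the tissue.

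Mitochondria carry their own ribosome. It translates only the few proteins encoded by mitochondrial DNA, all of them subunits of the respiratory chain and ATP synthase, while every protein of the ribosome itself is encoded in the nucleus, made in the cytosol and imported. The large subunit forms peptide bonds and sits against the inner membrane, and the small subunit binds the messenger RNA and reads codons. Growing sensory axons draw heavily on mitochondrial ATP. The comparison of Lkb1 KO with WT ganglia is given here for the transcripts of this machine.

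No mitochondrial ribosomal protein transcript changed at an adjusted p under 0.05: 0 of 77 were higher and 0 were lower in the Lkb1 KO (limma, Benjamini-Hochberg over all genes). The smallest adjusted p was 0.2, for Mrpl48. At an unadjusted p under 0.05, 4 of 77 genes (5.19%) passed, all lower in the Lkb1 KO: Mrpl48, Mrps9, Mrpl35 and Mrpl19. Over all genes, 3.87% were called, 2.49% as higher and 1.38% as lower, and 15.3% passed at the unadjusted level. Among the 10950 genes within the members' range of mean signal, 6.19% were called and 21.9% passed unadjusted.

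The proximal promoters were searched for short letter patterns, and 5 are printed as examples. Mrpl45, whose product holds the ribosome to the inner membrane, had a fold change near 0. Mrpl22 and Mrps21 are from the dim and the bright end of the signals, and Mrps9 and Mrpl35 had small unadjusted p. Each run is the 120 bases before the annotated start, 5′ to 3′ on the gene's strand, from RefSeq (GRCm38.p6), with matches to the searched letters in capitals.
Mrpl45 (chr11:97315596-97315715, plus strand): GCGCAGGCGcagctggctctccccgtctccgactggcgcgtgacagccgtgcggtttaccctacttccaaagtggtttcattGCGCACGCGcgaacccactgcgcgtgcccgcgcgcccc
Mrpl22 (chr11:58171544-58171663, plus strand): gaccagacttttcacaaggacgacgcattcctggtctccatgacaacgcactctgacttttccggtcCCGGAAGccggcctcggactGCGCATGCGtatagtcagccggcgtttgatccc
Mrps21 (chr3:95871515-95871634, minus strand): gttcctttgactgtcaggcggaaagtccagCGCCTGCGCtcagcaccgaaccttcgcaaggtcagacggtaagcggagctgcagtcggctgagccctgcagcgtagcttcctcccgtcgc
Mrps9 (chr1:42851113-42851232, plus strand): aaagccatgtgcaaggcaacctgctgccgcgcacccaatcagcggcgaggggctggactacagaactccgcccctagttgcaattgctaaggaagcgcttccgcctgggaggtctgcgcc
Mrpl35 (chr6:71823785-71823904, minus strand): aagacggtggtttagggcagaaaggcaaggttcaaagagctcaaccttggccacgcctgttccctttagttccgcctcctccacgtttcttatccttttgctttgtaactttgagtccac

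Letters of 3 kinds were searched on both strands of the window from 250 bases before to 50 after each start: GCGCANGCG (the letters of nuclear respiratory factor 1, a regulator of nuclear genes for mitochondria), CCGGAAG (ETS family factors) and AAGATGGC (YY1). A window was at hand for 68 of the 77 genes. A gene with several annotated starts, such as Mrpl48, has several windows and was counted if any of them held the letters. The nuclear respiratory factor 1 letters were found for 16 genes (23.5%), against 10.5% of all 15563 tested genes with a window. The ETS letters were found for 25 (36.8%), against 13.6%, and the YY1 letters for 12 (17.6%), against 3.77%. At least 1 of these was found for 43 genes (63.2%), against 24.3%. In Mrpl45 and Mrpl22 the capitals mark letters on the gene's own strand, and in Mrps21 letters on the opposite strand. The 120 bases of Mrps9 and Mrpl35 hold none, but a match starts 4 bases before the start of Mrps9 and runs across it, and a YY1 match lies after the start of Mrpl35. By subunit, 28 of 42 Mrpl genes with a window (66.7%) and 15 of 26 Mrps genes (57.7%) had at least 1 of the 3. A match is a run of letters and not a measured binding site.

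The standard errors of the differences were small. Values are log2 after robust multi-array averaging (RMA), so a difference of 1 is a doubling, and the median standard error of a member's difference was 0.049. The deleted gene was checked first: Stk11 read 8.61, 8.61, 8.51, 8.70 and 9.08 in the WT samples and 7.68, 7.82, 7.69, 7.77 and 7.94 in the Lkb1 KO samples. Every Lkb1 KO value was below every WT value, with a log2 fold change of -0.92 (SE 0.092, adjusted p = 0.000115). Where its probes lie relative to the deleted exons was not given in the sources used here. The array medians were between 6.5 and 6.57, and Y-linked genes averaged 4.94 and 5.18 in Lkb1 KO replicates 2 and 5 against 8.85 to 9.83 in the other 8 samples.

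Across the 77 genes the differences were small and lay mostly below 0. The median log2 fold change, Lkb1 KO minus WT, was -0.038, and 55 genes (71.4%) were below 0 while 22 were above. Over all genes the median was -0.0017 with 50.9% below 0, and over the genes in the same range of mean signal it was -0.021 with 6569 of 10950 below 0. The members ran from -0.156 for Mrpl24 to 0.107 for Mrps10, and 68 of 77 differed by less than 0.1. Their SD of 0.052 was below the 0.119 of all genes and near their median standard error of 0.049. The SD was 0.028 for the cytosolic ribosomal proteins and 0.083 for the complex I subunits. The size of the shift depends on the scaling. With the array medians aligned the median was -0.035 and 54 of 77 genes were below 0. With cyclic loess normalisation the median was -0.018 and 45 of 77 genes were below 0.

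The 95% confidence intervals give a range for each gene's difference in array signal between whole ganglia. They are from the unpaired fit and hold gene by gene, not for all 77 together. They do not cover changes within a part of the cells or changes removed by normalisation. For 71 of the 77 the whole interval was within 1.2-fold of no difference, and for all 77 it was within 1.5-fold. The 6 wider ones were Mrpl22, Mrpl24, Mrpl46, Mrpl48, Mrpl52 and Mrps11. The lowest bound was -0.358, for Mrpl24, a 1.28-fold decrease, and the highest was 0.256, for Mrps10, a 1.19-fold increase. In whole ganglia, fewer cells of a type and less RNA per cell cannot be told apart.

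**Figure D1:**
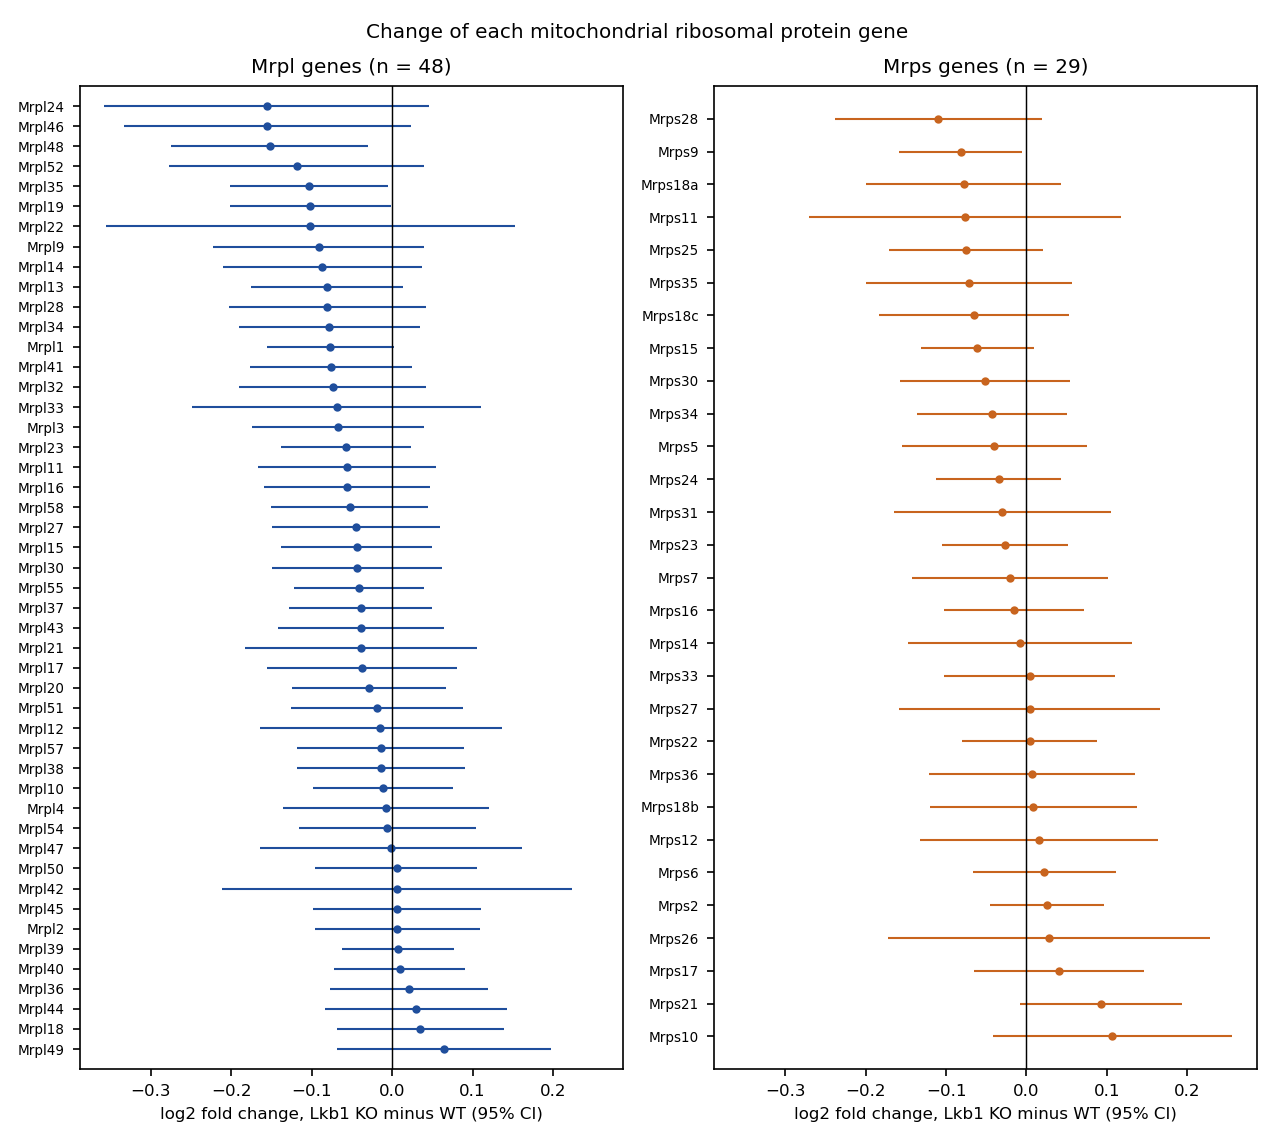
The log2 fold change (Lkb1 KO minus WT, x axis) of each of the 77 genes (rows), with Mrpl genes in the left panel and Mrps genes in the right. Points are limma estimates and bars are 95% confidence intervals from 5 samples a group; most points lie slightly left of 0, none passed the adjusted threshold, and no interval goes beyond -0.358 or 0.256.

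Among the large subunit genes, Mrpl48 had the smallest p of all members. Its product belongs to the central protuberance of the large subunit. It read 9.26, 9.5, 9.49, 9.39 and 9.30 in WT and 9.32, 9.31, 9.14, 9.17 and 9.26 in the Lkb1 KO. WT replicates 2, 3 and 4 were above every Lkb1 KO sample, but WT replicates 1 and 5 were not. The difference was -0.15 (SE 0.056, adjusted p = 0.2). RefSeq lists a pseudogene of Mrpl48, and likewise of Mrpl23, Mrpl27 and Mrps36, so these probe sets could read a near-identical copy, in part or alone. The probe set numbers of the members follow the chromosomes of the genes, except for those of Mrpl48, Mrpl27, Mrpl41 and Mrps33. Where the probe sets lie on the genome was not checked.

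Mrpl35 and Mrpl19 have counterparts in the bacterial ribosome, and their estimates were alike in size. Mrpl35 read 9.49, 9.55, 9.60, 9.45 and 9.57 in WT and 9.53, 9.41, 9.47, 9.39 and 9.33 in the Lkb1 KO, a difference of -0.10 (SE 0.045, adjusted p = 0.293). Lkb1 KO replicate 1 was among the WT values, and 3 of the other Lkb1 KO samples were below all WT samples. Mrpl19 read 8.88, 8.89, 9.0, 8.83 and 8.97 in WT and 8.93, 8.74, 8.80, 8.83 and 8.78 in the Lkb1 KO, a difference of -0.10 (SE 0.046, adjusted p = 0.314). Lkb1 KO replicate 1 again lay among the WT values, and Lkb1 KO replicate 4 was level with the lowest of them. Mrpl1, a protein of the stalk beside the tRNA exit site, read 8.72 to 8.83 in WT and 8.66 to 8.75 in the Lkb1 KO, a difference of -0.08 (SE 0.036, adjusted p = 0.342).

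Mrpl24, the counterpart of a bacterial protein near the exit of the peptide tunnel, had the lowest estimate of all members. It read 8.66, 8.70, 8.59, 8.49 and 9.02 in WT and 8.63, 8.56, 8.47, 8.33 and 8.69 in the Lkb1 KO. WT replicate 5 stood highest in its group and Lkb1 KO replicate 5 in its own, and the groups overlapped, with a difference of -0.16 (SE 0.093, adjusted p = 0.492). With the replicate number as a block, which compares samples of the same number, the difference was the same with an SE of 0.046 and an adjusted p of 0.0847, the smallest of any member under any setting tried. Mrpl46, also of the central protuberance, read 6.90, 6.97, 6.92, 7.18 and 7.32 in WT and 7.04, 6.76, 6.93, 6.97 and 6.82 in the Lkb1 KO, a difference of -0.16 (SE 0.082, adjusted p = 0.419). Its 2 highest values were WT replicates 4 and 5, and the other samples were intermixed.

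The remaining large subunit genes named by p were Mrpl13 (log2 fold change -0.08, SE 0.044, adjusted p = 0.428) and Mrpl52 (-0.12, SE 0.073, adjusted p = 0.508). Mrpl34, named for its bright probe set, had -0.08 (SE 0.052, adjusted p = 0.55). In each of these the groups overlapped.

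Large subunit proteins with known roles beyond the core were read in their own right. Mrpl45, the membrane anchor, read 8.37, 8.34, 8.42, 8.34 and 8.36 in WT and 8.45, 8.42, 8.41, 8.20 and 8.37 in the Lkb1 KO. Its difference was 0.01 (95% interval -0.098 to 0.11), and Lkb1 KO replicate 4 was the lowest of the 10 samples. Mrpl12, a stalk protein that recruits translation factors and is also reported to bind the mitochondrial RNA polymerase, read 8.24 to 8.51 in WT and 8.18 to 8.55 in the Lkb1 KO, a difference of -0.01 (SE 0.069). Mrpl58 (also Ict1), which releases peptides from stalled ribosomes, read 9.34 to 9.51 in WT and 9.32 to 9.48 in the Lkb1 KO, a difference of -0.05 (SE 0.045). The intervals reached from -0.165 to 0.136 for Mrpl12 and from -0.151 to 0.045 for Mrpl58.

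Mrpl16, a neighbour of the peptidyl transferase centre, had a difference of -0.06 (SE 0.048, adjusted p = 0.666) and Mrpl44, which carries a ribonuclease III-like fold, of 0.03 (SE 0.052, adjusted p = 0.862). Mrpl22, a protein of the exit tunnel wall, had one of the dimmest probe sets, with an SD of 0.153 in WT and 0.279 in the Lkb1 KO. It read 6.10, 6.45, 6.47, 6.30 and 6.42 in WT and 6.28, 6.25, 6.25, 5.83 and 6.62 in the Lkb1 KO. Lkb1 KO replicates 4 and 5 were the lowest and the highest of all 10 samples, and the difference was -0.10 (95% interval -0.356 to 0.153).

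Small subunit genes were split more evenly around 0. Mrps9, the counterpart of a bacterial protein whose tail reaches the bound tRNA, read 7.80, 7.80, 7.73, 7.70 and 7.73 in WT and 7.68, 7.66, 7.63, 7.67 and 7.71 in the Lkb1 KO. A single Lkb1 KO sample, replicate 5, was above the lowest WT value, and the difference was -0.08 (SE 0.035, adjusted p = 0.285). Mrps15, which binds the small ribosomal RNA, read 11.07, 11.16, 11.08, 11.10 and 11.07 in WT and 11.03, 11.04, 11.02, 11.05 and 11.03 in the Lkb1 KO. It was the 1 member of 77 whose groups did not overlap, against 5.34% of all genes. The difference was -0.06 (SE 0.032, adjusted p = 0.415), with an exact permutation p of 0.00794, the smallest that 5 against 5 allows before any adjustment over the members.

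The members with the highest estimates in the Lkb1 KO were small subunit genes too. Mrps21 read 10.56, 10.51, 10.52, 10.58 and 10.48 in WT and 10.63, 10.59, 10.64, 10.49 and 10.75 in the Lkb1 KO, so that 4 of 5 Lkb1 KO samples were above all WT samples. The difference was 0.09 (SE 0.047, adjusted p = 0.385). Mrps10 read 7.80, 7.74, 7.67, 7.73 and 7.53 in WT and 7.96, 7.61, 7.74, 7.78 and 7.91 in the Lkb1 KO, a difference of 0.11 (SE 0.069, adjusted p = 0.532). The WT and Lkb1 KO samples of Mrps10 were intermixed apart from Lkb1 KO replicates 1 and 5, which were highest.

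**Figure D2:**
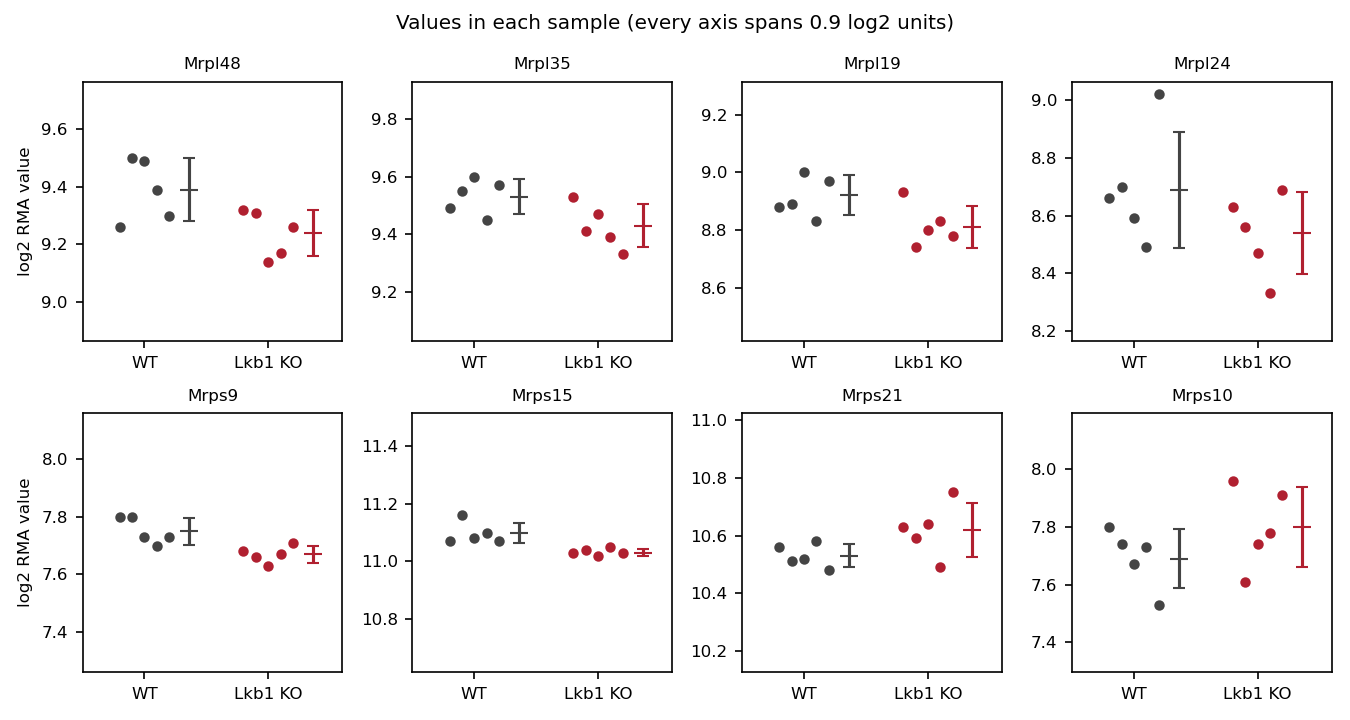
The log2 RMA value (y axis, 0.9 log2 units in each panel) of 8 genes in the 5 WT (grey) and 5 Lkb1 KO (red) samples, with the group mean ± SD beside the points. Mrps15 is the gene whose groups do not overlap, with WT from 11.07 and Lkb1 KO up to 11.05, and in the other 7 at least 1 sample lies among the other group's.

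Mammals have 3 proteins in place of the bacterial S18, and they occupy different places. Mrps18a sits in the large subunit despite its name and had a difference of -0.08 (SE 0.056, adjusted p = 0.589). Mrps18b had 0.01 (SE 0.059, adjusted p = 0.968) and Mrps18c had -0.07 (SE 0.055, adjusted p = 0.66). All 3 overlapped between groups, as did Mrps30, another protein of the large subunit by structure, at -0.05 (SE 0.048, adjusted p = 0.706).

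Mrps12, a protein of the decoding centre, read 6.23 to 6.66 in WT and 6.42 to 6.59 in the Lkb1 KO, a difference of 0.02 (SE 0.068). Mrps36, which is now known as a component of the 2-oxoglutarate dehydrogenase complex rather than of the ribosome, read 8.79 to 8.85 in WT and 8.66 to 9.04 in the Lkb1 KO, a difference of 0.01 (SE 0.059). Mrps28, Mrps25 and Mrps26 had differences of -0.11, -0.07 and 0.03 with adjusted p of 0.429, 0.485 and 0.935.

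Compared as subunits, the Mrpl genes lay slightly further below 0 than the Mrps genes. The median was -0.0425 for Mrpl, with 38 of 48 below 0 (79.2%), and -0.020 for Mrps, with 17 of 29 below 0 (58.6%). The difference of the medians was -0.023. Counting Mrps18a and Mrps30 with the large subunit and leaving out Mrps36 gave -0.044 for 50 large subunit genes and -0.018 for 26 small subunit genes. With cyclic loess the medians were -0.022 (30 of 48 below 0) and -0.0031 (15 of 29 below 0). The difference between the subunits was given no test.

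The same values were averaged over the genes of a subunit within each sample, as deviations from each gene's mean over the 10 samples. For Mrpl the WT samples were at -0.010, 0.073, 0.047, -0.006 and 0.008, and the Lkb1 KO samples at 0.041, -0.008, -0.048, -0.082 and -0.014. For Mrps the WT samples were at 0.004, 0.056, 0.017, -0.007 and -0.024, and the Lkb1 KO samples at 0.049, 0.003, -0.013, -0.060 and -0.024. WT replicate 2 was highest and Lkb1 KO replicate 4 lowest for both subunits, and Lkb1 KO replicate 1 lay among the upper WT samples. The group means were 0.022 ± 0.036 and -0.022 ± 0.046 for Mrpl (SD, n = 5 each) and 0.0092 ± 0.030 and -0.009 ± 0.040 for Mrps, so that the groups overlapped for both.

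Subtracting the small from the large subunit mean in each sample removes what both share. The result was -0.014, 0.017, 0.030, 0.001 and 0.032 in WT and -0.008, -0.011, -0.035, -0.022 and 0.010 in the Lkb1 KO. WT samples were mostly above 0 and Lkb1 KO samples mostly below, with WT replicate 1 and Lkb1 KO replicate 5 as the exceptions. WT replicate 4 was near 0, and the groups overlapped. The values are centred over the 10 samples, so the group means are equal and opposite by construction. Between same-numbered samples, Lkb1 KO minus WT over all 77 genes was 0.049, -0.070, -0.071, -0.067 and -0.014, and 21, 59, 58, 60 and 42 of the 77 genes were lower. Number 1 thus ran against numbers 2 to 5. Leaving out WT replicate 2 brought the median over the 77 genes from -0.038 to -0.021, leaving out Lkb1 KO replicate 4 brought it to -0.022, and leaving out Lkb1 KO replicate 1 brought it to -0.050.

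**Figure D3:**
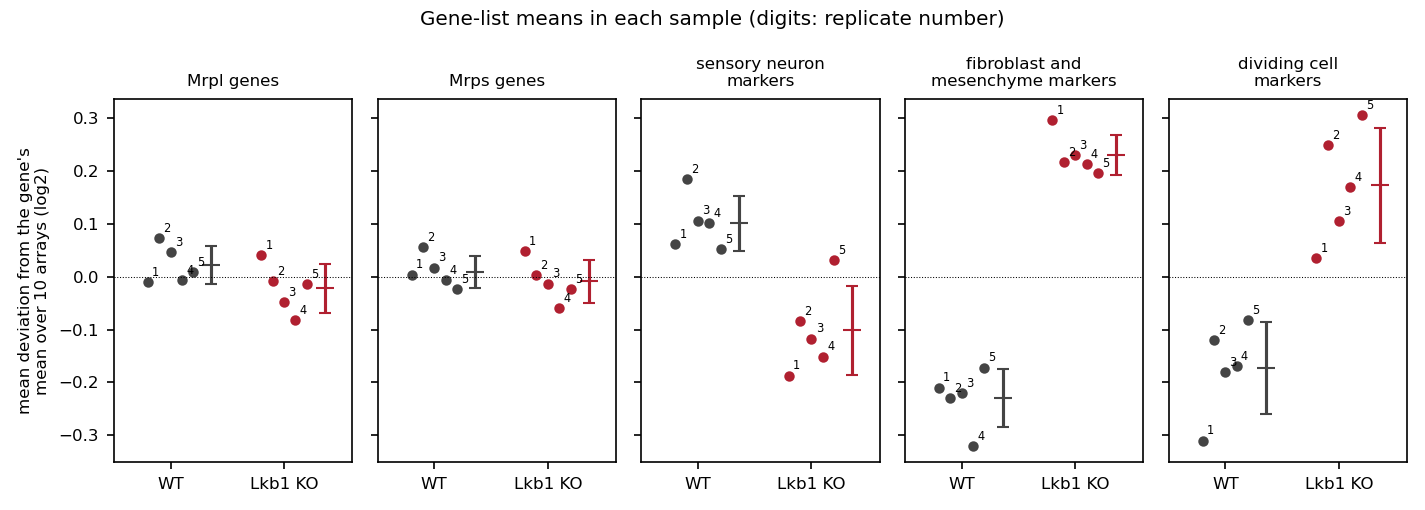
The mean deviation of each sample (log2, y axis) from the genes' means over all 10 samples. Panels are Mrpl genes, Mrps genes, and sensory neuron, fibroblast and mesenchyme, and dividing cell markers. WT samples are in grey and Lkb1 KO samples in red, with the group mean ± SD (n = 5) beside them. The groups overlap for Mrpl and Mrps, with WT replicate 2 at the top and Lkb1 KO replicate 4 at the bottom for both. In the marker panels they do not overlap: Lkb1 KO is lower for sensory neuron markers and higher for fibroblast and dividing cell markers.

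Genes with and without a counterpart in bacteria were also set apart, by a hand-made classification. The 44 with a counterpart had a median of -0.044 (35 below 0). The 27 found in mitochondria alone had a median of -0.0145 (16 below 0), which with cyclic loess became 0.0067 (12 of 27 below 0). The 6 that were not classed had a median of -0.047. Both classes hold Mrpl and Mrps genes, and no median was taken for a class within a subunit. Whether the difference between the classes holds within each subunit, or that between the subunits within each class, was not tested.

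For 8 members a second, dimmer probe set could be read. Its log2 fold change was -0.053 against -0.057 for Mrpl23, -0.041 against -0.040 for Mrps5 and -0.003 against -0.001 for Mrpl47. The probe sets were further apart for Mrpl41 (-0.057 against -0.076), Mrpl27 (-0.009 against -0.045) and Mrpl51 (-0.060 against -0.019). The signs differed for Mrps33 (0.004 and, in the second, -0.040) and Mrps36 (0.007 and -0.014), both near 0. None of the second probe sets had an adjusted p under 0.5.

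The other genes that a mitochondrial ribosome needs gave 0 called genes in either direction as well, against the 3.87% of all genes. Of the mitoribosomal proteins under other symbols, 4 were measured, with a median of -0.015 (0.0045 with cyclic loess), among them Chchd1 (-0.08, adjusted p = 0.487) and Ptcd3 (0.05, adjusted p = 0.637). The 14 translation factors had a median of -0.060 with 12 below 0. Mtfmt, which formylates the initiator methionyl-tRNA, had -0.12 (SE 0.044, adjusted p = 0.177), and Tufm, the elongation factor that brings tRNA to the ribosome, had -0.07 (adjusted p = 0.44). The 21 genes of aminoacyl-tRNA synthesis had a median of -0.040 with 16 below 0, and Hars2, the histidyl-tRNA synthetase, had -0.11 (SE 0.039, adjusted p = 0.172).

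Among the 28 genes of mitoribosome assembly and rRNA modification, 19 were below 0 and the median was -0.040. Mtg1, a GTPase of large subunit assembly, read 6.22, 6.20, 6.26, 6.04 and 6.06 in WT and 6.10, 5.93, 6.07, 5.83 and 5.92 in the Lkb1 KO. Every Lkb1 KO sample was below the WT sample of its number, although the groups overlapped, and the difference was -0.19 (SE 0.061, adjusted p = 0.126). With the replicate block its adjusted p was 0.0171, and over all alternatives it went from 0.0171 to 0.385. The 22 genes of mitochondrial DNA transcription and RNA handling had a median of -0.010 with 13 below 0, which with cyclic loess became 0.0115. Its genes with the smallest p were Fastkd1, of a family of mitochondrial RNA-binding proteins, at -0.18 (SE 0.074, adjusted p = 0.242), Mterf2, of the mitochondrial transcription termination factor family, at -0.17 (SE 0.077, adjusted p = 0.306), and Polrmt, the mitochondrial RNA polymerase, at -0.07 (SE 0.047, adjusted p = 0.551). The groups overlapped in all 3.

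Nuclear genes of the respiratory chain, whose products assemble with those the mitochondrial ribosome makes, also had no call. The 34 complex I subunits had a median of -0.046 with 28 below 0. Ndufs3, a core subunit of complex I, read 9.89, 9.99, 9.86, 9.91 and 9.94 in WT and 9.83, 9.82, 9.76, 9.75 and 9.84 in the Lkb1 KO, without overlap, a difference of -0.12 (SE 0.038, adjusted p = 0.12). Ndufa11, an accessory subunit, had -0.18 (SE 0.056, adjusted p = 0.102). It passed in 2 alternatives, with array weights (adjusted p = 0.0423) and without Lkb1 KO replicate 1 (-0.23, adjusted p = 0.011). The 38 subunits of complexes II to V had a median of -0.021, and the 55 cytosolic ribosomal proteins measured had a median of -0.018 with 38 below 0, which with cyclic loess became 0.0011.

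**Figure D4:**
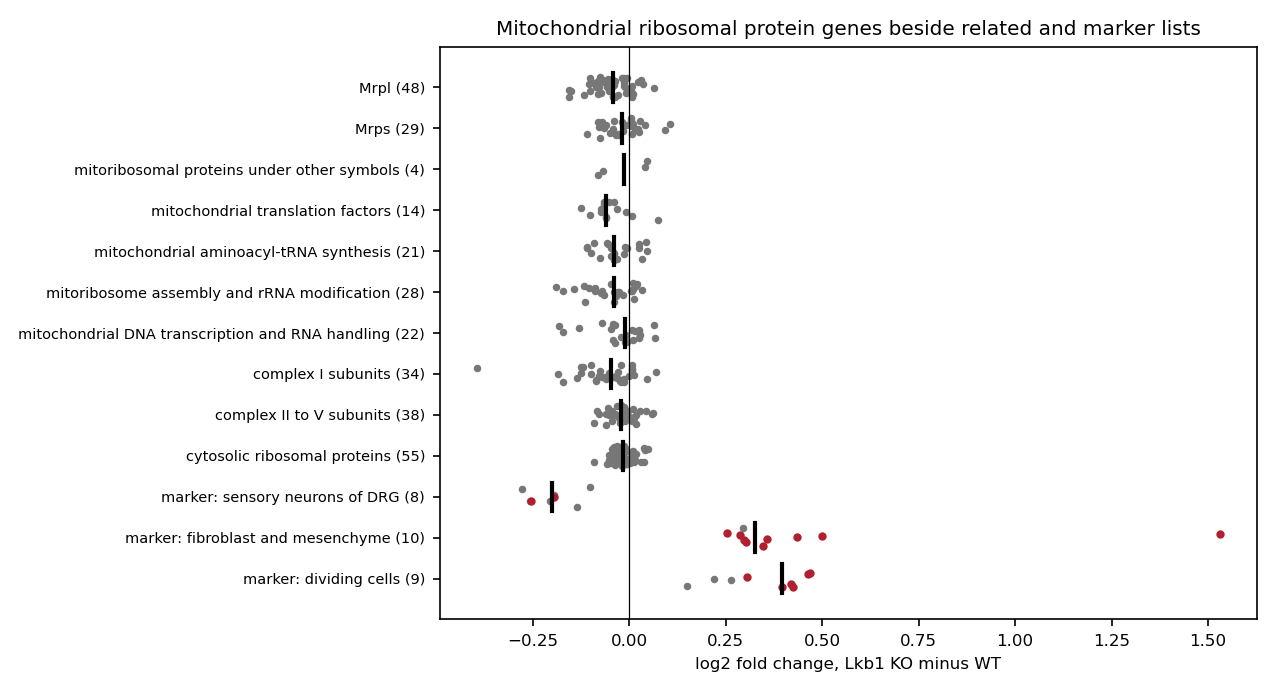
The log2 fold change (Lkb1 KO minus WT, x axis) of every measured gene of the lists drawn (rows). Points are red where the adjusted p in limma was under 0.05, and black bars are medians. The rows are the mitochondrial and ribosomal lists and the sensory neuron, fibroblast and mesenchyme, and dividing cell markers. The glial, endothelial, macrophage and erythroid markers are not drawn. The mitochondrial and ribosomal lists hold no red point and their medians lie between -0.060 and -0.010 (with cyclic loess, 3 of them lie above 0, at up to 0.0115), while fibroblast and dividing cell markers lie to the right of 0 and sensory neuron markers to the left.

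Cell type markers moved in the same ganglia. The 10 fibroblast and mesenchyme markers had a median of 0.32, with 9 higher, and the range of their mean level was 8.74 to 8.89 in WT and 9.26 to 9.36 in the Lkb1 KO. The 9 markers of dividing cells had a median of 0.39, with 6 higher, at 8.79 to 9.02 in WT and 9.14 to 9.41 in the Lkb1 KO. The 8 sensory neuron markers had a median of -0.20, with all 8 below 0 and 2 lower, and ranged from 9.90 to 10.03 in WT and from 9.66 to 9.88 in the Lkb1 KO. Isl1 (-0.25, adjusted p = 0.00211) and Prrxl1 (-0.19, adjusted p = 0.044), transcription factors of sensory neurons, were the 2 that fell. Isl1 was called under every alternative with 1 value a gene, and Prrxl1 lost its call under most of them, cyclic loess included. Of the 8 Schwann and satellite glia markers Dhh rose and Cdh19 fell, 1 of 10 endothelial markers rose, and no macrophage or erythroid marker was called. The part of these differences in the mitochondrial ribosomal values was not tested.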

How the data were processed

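Total RNA (250 ng) of 10 DRG pools was labelled and hybridised to Mouse Gene 1.0 ST arrays. The deposited values are log2 expression after RMA, made by the authors; their processing notes name Partek 6.6. Scanner files were not used here. Of 35556 probe sets, 21789 named 1 gene in the platform annotation, 1621 named several and 12146 none; 21698 were matched to RefSeq. The brightest probe set stood for each of 19938 genes (999 had several). All 77 members were found in RefSeq, which lists 78 protein-coding Mrpl and Mrps genes; Mrpl53 has a probe set shared with another gene and was left out.

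Groups came from the sample titles. Lkb1 KO was compared with WT by limma 3.58.1 (R 4.3.3, lmFit and eBayes), with p adjusted by Benjamini-Hochberg over all genes and called under 0.05. Exact permutation tests were two-sided over 252 assignments. Tables and figures were made with Python 3.11.15, pandas 2.3.3 and matplotlib 3.10.9. RMA quantile normalisation forces arrays onto one distribution, so a shift shared by most genes would not be seen, and the number of arrays limits the precision. The spread between samples is that of pools, not of single embryos. The fit was tested on simulated data.

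Members, lists and tests were chosen with earlier results of these data known. The text names members called, the 8 Mrpl and 8 Mrps genes with the smallest p, the 3 brightest and 3 dimmest, 11 genes of known role, up to 3 genes with the smallest p in each list, and Stk11. Same-numbered WT and Lkb1 KO samples deviated together (r across genes 0.21 to 0.48, other pairs -0.48 to 0.31). The 2 ranges overlap, with WT replicate 5 and Lkb1 KO replicate 4 at 0.31. The numbers were taken as a possible pairing, from the values and not from a label. The main fit was unpaired, so its standard errors, intervals and p leave this pairing out. With the replicate block as an alternative, 1280 genes were called rather than 771, and 0 members. Alternatives were array scaling, other fits, probe set rules, leaving out samples, the replicate block and a Y-linked covariate.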

Additional observations from a re-analysis of the deposited data

Results flagged for a closer look

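In 3 of the 62 groups of 5 values examined, 1 sample stood apart from the other 4, and chance alone gives about 1 in 20. Mrps15 read 11.16 in WT replicate 2, against 11.07 to 11.10 in the other WT samples, a gap of 0.725 of the group's range. Mrps26 read 5.68 in Lkb1 KO replicate 5, against 5.98 to 6.06 in the others (0.787 of the range). Mrps12 read 6.59 in Lkb1 KO replicate 4, against 6.42 to 6.45 in the others (0.791 of the range).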

How the results depend on the processing

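No member was called under any alternative tried, and the smallest adjusted p of any was 0.0847 (Mrpl24, replicate block). The number of members with unadjusted p under 0.05 went from 1 (without WT replicate 2, without WT replicate 3, or with Lkb1 KO replicates 2 and 5 left out) to 9 (without Lkb1 KO replicate 1), against 4 in the main analysis. Their median log2 fold change stayed below 0, between -0.0498 and -0.0176. Of 28 named members under 20 alternatives each, 22 of 560 values changed sign, in 8 members, and 20 members kept theirs.

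Over all genes, 771 were called. The count was 387 when every gene had its own analysis of variance, 1280 with the replicate block, 470 with Y-linked genes as a covariate, 313 at an adjusted p under 0.01, and 459 with Lkb1 KO replicates 2 and 5 left out, which was chosen after seeing the data. Leaving out single samples gave 485 to 834, with 504, 490 and 485 without WT replicates 2, 3 and 4. Pairing by the replicate block moved the assembly and rRNA modification list from 0 to 1 called gene (Mtg1) and changed no other call on the mitochondrial and ribosomal lists. Ndufa11 passed with array weights and without Lkb1 KO replicate 1, and Rpl10, a cytosolic ribosomal protein, with the analysis of variance (adjusted p = 0.0344). The causes were not tested.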
